A study of Drosophila melanogaster with 159 samples.

Results

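The genes exu (exuperantia) and swa (swallow) of the fruit fly Drosophila melanogaster were followed through the life cycle. They were found as the probes that the platform annotation assigns to exu or to swa alone, which gave 3 probes of 12588 for 2 genes of 3045 with such a probe. Each array compared the poly(A)+ RNA of 1 sample of whole animals with a common reference RNA, and 159 arrays covered 80 groups, with 2 arrays in 79 groups and a single array at 0 h of metamorphosis. Embryos were covered by 60 arrays from 30 overlapping 1 h collections, larvae by 24 arrays in 12 groups timed from hatching, with a male and a female group at the last time point, titled Larvae_105h, and metamorphosis by 35 arrays at 18 times from the white prepupa. Adults comprised 8 arrays of tudor flies, male and female at 0-24 h and 5 d, and 32 arrays of wild-type males and females at 8 ages after eclosion, up to 30 d.

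All samples are labelled as the Canton S wild-type strain raised at 25 °C, the tudor arrays included, so the tudor line is known from the array titles and scan comments alone. The labels do not say whether the flies or their mothers lacked tudor. Adults were aged in mixed-sex cultures and sorted by sex after freezing. The labels do not state that the 2 arrays of a group came from separate collections, so p-values measure the spread between arrays, which may be technical, and the number of arrays limits the precision. In RNA of whole animals, fewer cells of a type and less RNA per cell cannot be told apart.

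In the ovary, the RNA of bicoid is deposited at the anterior of the oocyte, where its protein will later set up the head end of the embryo. Exuperantia protein is needed early in this localisation and swallow protein for holding the RNA at the anterior cortex. In background work exu is also required for sperm development, with transcripts that differ between male and female germ cells. Tudor is a germline gene best known for its part in forming the pole cells, the founders of the germline, when it is supplied by the mother.

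Values are log2 ratios of sample to reference RNA after subtraction of each array's median, so a difference of 1 is a 2-fold difference in RNA. Zero marks the median probe of that array, and the level of exu cannot be set against that of swa on this scale. The 4 embryo and metamorphosis arrays that resembled no other correlated at 0.354 or less with every array of another group. They were embryo 2-3 h, embryo 4-5 h, metamorphosis 12 h and metamorphosis 16 h, replicate 1 each. Each fit used limma over all probes with a value on at least 80% of its arrays and called a probe at an adjusted p under 0.05. Both genes were tested in all 19 comparisons.

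One exu probe had a value on 155 arrays and was read throughout. The second exu probe had a value on 1 array, embryo 16-17 h replicate 2, where it stood at 0.26 against -2.80 for the first. The single swa probe had a value on 157 arrays. No value of either gene lay at the upper limit of the scale.

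Both poly(A)+ RNAs were high in the youngest embryos and fell within hours of egg laying. Only poly(A)+ RNA was measured, so loss of an RNA and shortening of its poly(A) tail cannot be told apart. In 4-6.5 h embryos exu had a lowest value of -2.14, a median of -1.52 and a highest of 1.01, against 1.43, 1.84 and 2.07 in 0-2 h embryos. The groups did not overlap, and the one high value at 4-6.5 h was embryo 4-5 h replicate 1. The exu RNA fell by 3.04 ± 0.34 on the log2 scale (SE, n = 8 and 6 arrays, limma adjusted p = 5.13e-06), an 8.21-fold fall, and by 3.41 without that array. The swa RNA fell at a similar time. In 4-6.5 h embryos swa had a lowest value of -0.41, a median of 0.32 and a highest of 0.81, against 2.10, 2.88 and 3.19 in 0-2 h embryos. No array of the later group reached the earlier one, and swa fell by 2.56 ± 0.18 (SE, limma adjusted p = 6.22e-08). In this comparison 52.9% of the 6996 probes tested passed, 20.7% as lower and 32.2% as higher, so that 60.9% of the calls were higher, against 49.5% without centring and 50.3% under quantile normalization. On slide set A alone, with 2 arrays of each window, neither difference passed (-2.42 for exu and -2.32 for swa, limma adjusted p = 0.267 and 0.0916).

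The collections between these windows place the falls in time. Every value of exu first lay below the midpoint of its embryonic range (-0.68) in the 2.5-3.5 h collection, at -1.09 and -1.14. All of the 24 later collections stayed below it on every array, apart from embryo 4-5 h replicate 1. Every value of swa first lay below its midpoint (0.95) in the 3-4 h collection, at 0.25 and 0.74, and stayed below it in the 23 later collections. In the 2-3 h collection the replicates of each gene were far apart, at 1.11 and -0.59 for exu and at 0.67 and 2.67 for swa, and replicate 1 there is one of the 4 arrays that resembled no other.

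By the end of embryogenesis both RNAs were lower still. In 20-24 h embryos exu ranged from -3.75 to -2.46 with a median of -3.11, against a range of 1.43 to 2.07 in 0-2 h embryos. It fell by 4.90 ± 0.19 on the log2 scale (SE, n = 8 and 6, limma adjusted p = 6.90e-13), or 29.8-fold. For swa, values in 20-24 h embryos lay between -1.13 and -0.57 with a median of -0.85, against 2.10 to 3.19 in 0-2 h embryos. The swa difference was -3.53 ± 0.16 (SE, limma adjusted p = 5.15e-12), or 11.6-fold. A share of 83.3% of all 6912 probes passed here, 38.4% as lower and 45% as higher, so that 53.96% of the calls were higher, against 40.93% without centring. Over all 30 collections both genes also passed the test for any change (limma adjusted p = 1.32e-10 for exu and 3.11e-14 for swa), as did 80.9% of 6960 probes.

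**Figure D1:**
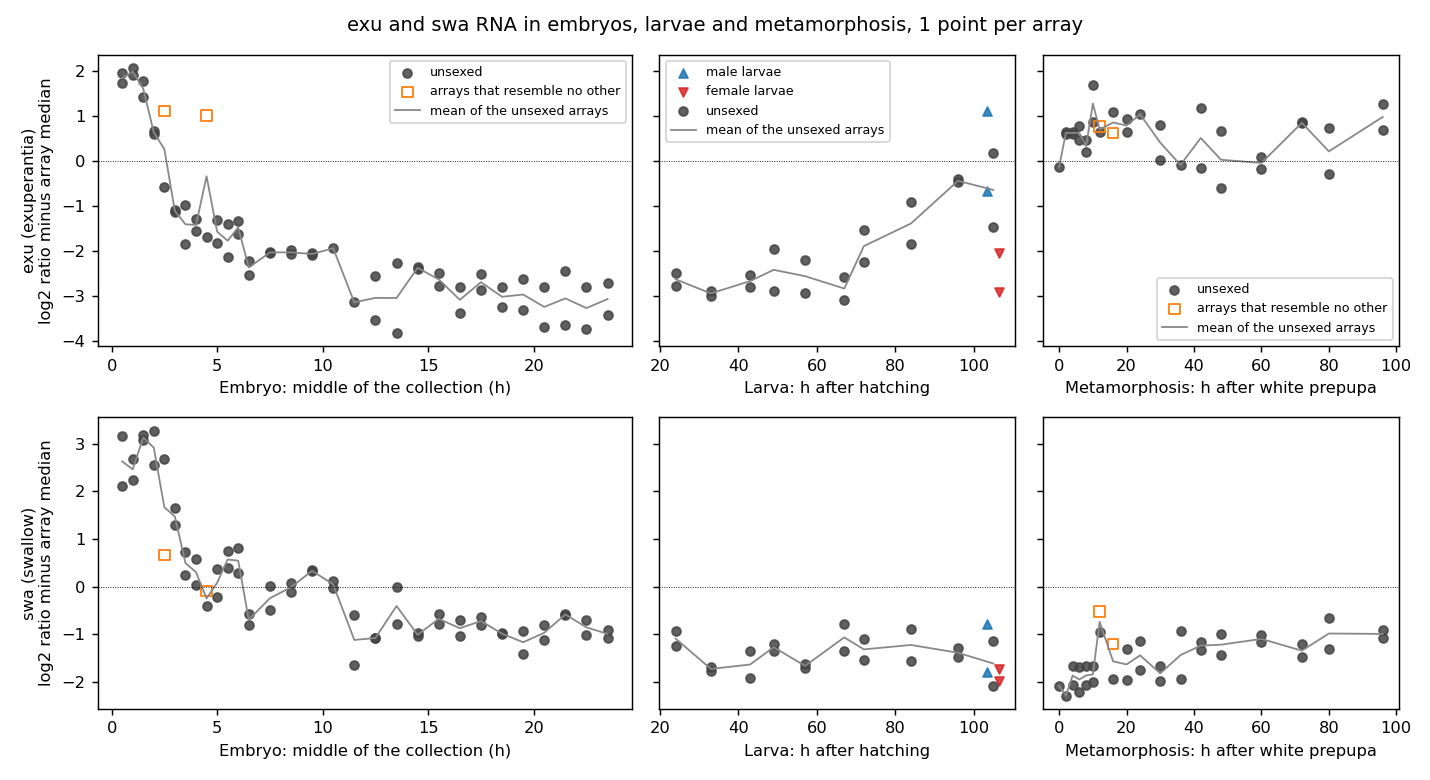
Centred log2 ratios of exu (top row) and swa (bottom row) on every array of embryos, larvae and metamorphosis, plotted against hours. Grey lines join the means of the unsexed arrays, orange squares are the 4 arrays that resembled no other, and the sexed larvae are drawn slightly left and right of their time. exu drops within the first hours, is higher again in late larvae and lies between -0.61 and 1.69 in metamorphosis, whereas swa lies below 0 in larvae and metamorphosis.

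A list of 35 other genes of bicoid and oocyte RNA localisation, 10 of them with a probe, was set beside exu and swa. Between 0-2 h and 4-6.5 h, 1 of these 10 rose, 4 fell and 5 did not pass, with a median difference of -0.33 against 0.19 over all probes. Of all probes 32.2% passed as higher and 20.7% as lower. capu, an actin nucleator of the oocyte, fell by 1.77 ± 0.28 (SE, limma adjusted p = 1.27e-04). Vps36, an ESCRT subunit that binds bicoid RNA, rose by 0.94 ± 0.18 (limma adjusted p = 4.73e-04). Between 0-2 h and 20-24 h, 8 of the 10 fell and 1 rose, with a median of -1.31 against 0.16 over all probes. Of all probes 38.4% passed as lower and 45% as higher. Among them the probe annotated to bcd, the gene of bicoid itself, fell by 1.53 ± 0.14 (limma adjusted p = 4.72e-08).

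The fall of exu and swa by 4-6.5 h had no called counterpart in bcd. The mean of bcd was 1.73 ± 0.17 (SD, n = 8) in 4-6.5 h embryos against 1.51 ± 0.18 (n = 6) in 0-2 h embryos, and this difference did not pass the test (limma adjusted p = 0.130). At 6-12 h the bcd probe averaged 1.51 ± 0.50 (SD, n = 12), when exu averaged -2.21 ± 0.37 (n = 10). The bcd probe also averaged 0.94 ± 0.48 (SD, n = 6) at 0-6 h of metamorphosis. In wild-type adults it averaged 0.34 in males and 0.26 in females. Whether this probe reports bicoid RNA alone was not tested. The 6 measured genes of 26 in a list of maternal and germline genes were also read. Between 0-2 h and 4-6.5 h, 4 of the 6 fell and none rose, with a median of -1.14. Of all probes 20.7% passed as lower and 32.2% as higher. mtrm, which restrains Polo during meiosis in the oocyte, fell by 4.16 ± 0.45 (limma adjusted p = 3.95e-06), and smg, whose protein drives the clearance of maternal RNA, fell by 1.95 ± 0.23 (limma adjusted p = 9.71e-06).

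The exu values of freshly laid embryos and of adult females overlapped. In 0-2 h embryos exu had a lowest value of 1.43, a median of 1.84 and a highest of 2.07, against 0.56, 1.46 and 2.92 in wild-type females of 3-30 d. The embryo values lay inside the range of the females. The difference was 0.12 ± 0.27 (SE, n = 6 and 14, 95% interval -0.44 to 0.68, limma adjusted p = 0.711), and it depended on the slide set, one of 2 series of slides told apart by their numbers. It was 1.10 on slide set A alone (limma adjusted p = 0.00467) and -0.34 on slide set B alone (limma adjusted p = 0.359).

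For swa, 0-2 h embryos had a lowest value of 2.10, a median of 2.88 and a highest of 3.19, against 1.76, 2.27 and 2.80 in the females. The groups overlapped, and swa was higher in the embryos by 0.49 ± 0.19 (SE, n = 6 and 13, limma adjusted p = 0.0311). In this comparison 64.1% of 7094 probes passed, 33.1% as higher, so that 51.6% of the calls were higher, against 62.9% without centring. Here 8 of the 10 RNA localisation genes were higher in the embryos and 1 lower (median 0.68 against 0.05 over all probes). The swa difference was -0.11 on slide set A alone and missed the threshold without any 1 of 3 embryo arrays (0-1 h replicate 2, 1-2 h replicate 1 or 1-2 h replicate 2), with a limma adjusted p of up to 0.0889.

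In late larvae exu rose, and swa did not pass the test. In unsexed larvae from 84 h to Larvae_105h (late larvae) exu ranged from -1.86 to 0.17 with a median of -0.70, against -3.01 to -2.49 with a median of -2.79 at 24-43 h. No value of the older larvae fell into the range of the younger ones. The rise was 1.92 ± 0.29 (SE, n = 6 each, limma adjusted p = 4.09e-04), or 3.79-fold, and 31% of 6645 probes passed here, 13.9% as higher, so that 44.6% of the calls were higher, against 25.9% without centring. Of the RNA localisation list 3 of 10 rose and none fell, and of the testis list 7 of 9 rose (median 0.96). On slide set A alone, with 2 arrays of each window, the exu difference of 1.61 did not pass (limma adjusted p = 0.188). swa ranged from -2.09 to -0.89 in late larvae, against -1.92 to -0.93 at 24-43 h. Its ranges overlapped almost wholly, and the difference was 0.075 ± 0.23 (95% interval -0.41 to 0.56, limma adjusted p = 0.829).

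The late larval exu RNA differed by sex. Male larvae (Larvae_105h) had exu values of 1.11 and -0.67, against -2.06 and -2.91 in female larvae of the same age. Both male values lay above both female values, and the female values lay within the range of unsexed larvae of 49-72 h. The difference was 2.71 ± 0.57 (SE, n = 2 each, limma adjusted p = 0.00806), or 6.53-fold, and 3.63% of 6609 probes passed, 3.57% as higher and 0.0605% as lower in males. Male and female larvae shared a slide in each replicate, and exu was higher on the male array by 3.17 and by 2.25 on these slides. The scan comments of both replicate 1 arrays give the same sex as their titles but 96 h as the time. Without these arrays and unsexed larvae 72 h replicate 2, whose comment also differs from its title, the difference was 2.25 and was not called. The spread of the lone array of each sex was there taken from the other larval groups. The call was also lost without female replicate 2 or male replicate 1 alone (limma adjusted p of up to 0.139), and on slide set B alone, which holds all sexed larvae and leaves fewer larval arrays in the fit (2.71, limma adjusted p = 0.170).

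swa was low in both larval sexes. Its values were -0.78 and -1.79 in male larvae, against -1.73 and -1.97 in female larvae. The sexes overlapped, and the difference was 0.57 ± 0.36 (SE, 95% interval -0.18 to 1.32, limma adjusted p = 0.753), or 0.066 without male replicate 1 and 1.07 without male replicate 2.

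Genes of the testis and sperm were also higher in male larvae. Of 35 listed testis genes, 11 had a probe and 9 were tested here, and 8 of the 9 were higher in males with a median of 2.14 against -0.08 over all probes. The median of the list on an array was 0.92 and 1.30 in male larvae, against -1.29 and -1.22 in female larvae. soti, which is needed when spermatids separate, was higher in males by 3.23 ± 0.37 (SE, limma adjusted p = 2.27e-05). None of the 9 tested bicoid and oocyte RNA localisation genes and none of the 6 maternal genes passed in this comparison. Of all probes 3.63% passed, 3.57% as higher in males. With so few genes, no call is close to that share. The part of testis RNA in the exu difference was not tested.

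At the onset of metamorphosis the 2 genes moved in opposite directions. exu ranged from -0.13 to 0.78 with a median of 0.60 at 0-6 h after the white prepupa, against -1.86 to 0.17 with a median of -0.70 in late larvae. All but the 0 h array stood above every one of these larval values. The rise was 1.35 ± 0.29 (SE, n = 7 and 6, limma adjusted p = 0.00293), and on slide set B alone it was 1.08 and did not pass (limma adjusted p = 0.0783). swa ranged from -2.29 to -1.66 at 0-6 h, against -2.09 to -0.89 in the larvae, and was lower by 0.59 ± 0.22 (SE, n = 6 each, limma adjusted p = 0.0487). In this comparison 33.6% of 6661 probes passed, 16% as higher and 17.7% as lower, so that 47.5% of the calls were higher, against 77.6% without centring. Here 3 of the 10 RNA localisation genes rose and none fell. The swa call was lost in 6 of 9 alternatives and without any 1 of 10 arrays, and its difference under quantile normalization was -0.0080.

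Within metamorphosis neither gene passed the test for change over all times. Over 33 arrays with a value exu lay between -0.61 and 1.69, and the test for any change over 18 times was not passed (limma adjusted p = 0.412 for exu, 0.145 for swa), while 18.7% of 6861 probes passed. At 72-96 h exu ranged from -0.30 to 1.26, against -0.13 to 0.78 at 0-6 h, a difference of 0.18 ± 0.23 (SE, 95% interval -0.31 to 0.68, limma adjusted p = 0.545). swa ranged from -1.48 to -0.65 at 72-96 h, against -2.29 to -1.66 at 0-6 h. These swa groups did not overlap, and the rise was 0.89 ± 0.19 (SE, n = 6 each, limma adjusted p = 0.00200), or 1.86-fold. In this comparison 43.9% of 6519 probes passed, 22.7% as higher and 21.2% as lower. Of the 10 RNA localisation genes 3 fell and none rose. The swa rise was 0.49 on slide set A alone, where it missed the threshold (limma adjusted p = 0.115).

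On wild-type adult arrays exu lay above the array median in both sexes, and swa on every female array. Across the 16 arrays of each sex, exu had a lowest value of 1.25, a median of 2.04 and a highest of 3.48 in wild-type males, against 0.56, 1.33 and 2.92 in wild-type females. The sexes overlapped widely. With age and slide set in the model exu was higher in males by 0.52 ± 0.20 (SE, limma adjusted p = 0.0192), but the difference did not pass without centring (0.29) or under quantile normalization (-0.11). In this comparison 74% of 6860 probes passed, 39.9% as higher in males, so that 53.95% of the calls were higher, against 40.87% without centring. On slide set A exu averaged 1.90 ± 0.41 in males and 0.94 ± 0.28 in females (SD, n = 5 each), and the difference of 0.96 passed (limma adjusted p = 0.00429). On slide set B it averaged 2.26 ± 0.64 in males and 1.94 ± 0.72 in females (SD, n = 11 each), and the difference of 0.31 did not (limma adjusted p = 0.244). Male and female arrays of 1 age shared 12 slides. On 9 of these 12 exu was higher on the male array, with differences of -0.57 to 1.43. The 3 slides where it was lower on the male array carried flies of 25 d and 30 d.

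The sex difference of swa was larger and of the opposite sign. swa had a lowest value of -1.74, a median of -0.38 and a highest of 0.52 in wild-type males, against 0.95, 2.07 and 2.80 in wild-type females. No male value reached a female one. The difference was -2.63 ± 0.20 (SE, n = 16 and 15, limma adjusted p = 1.14e-12), or 6.20-fold lower in males, and 34.1% of the probes passed as lower. On the 11 slides that carried both sexes at 1 age swa was lower on the male array each time. The male minus female differences were -4.19 to -1.12.

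Among the other RNA localisation genes, 5 of 10 were lower in males, 1 was higher and 4 did not pass, with a median of -0.20 against 0.07 over all probes. Of all probes 34.1% passed as lower and 39.9% as higher. Hrb27C, an hnRNP protein that binds localised RNAs in the ovary, was lower in males (-1.80 ± 0.11, SE, limma adjusted p = 1.49e-14). orb, an RNA-binding protein of the oocyte, was lower too (-0.92 ± 0.12, SE, limma adjusted p = 6.61e-08). bcd did not pass (0.053 ± 0.17, limma adjusted p = 0.780), with a mean of 0.34 ± 0.38 (SD, n = 16) in males and 0.26 ± 0.74 (n = 15) in females. Of the 6 maternal and germline genes, 4 were lower and 2 higher in males. Pen, an importin alpha with a role in making sperm and eggs, was one of the 2 and stood higher by 0.97 ± 0.17 (limma adjusted p = 7.23e-06). Of the testis genes, 9 of 9 were higher in males, with a median of 4.29, and Acp36DE, a seminal fluid protein of the accessory gland, was higher by 8.07 ± 0.21 (limma adjusted p = 3.12e-24).

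**Figure D2:**
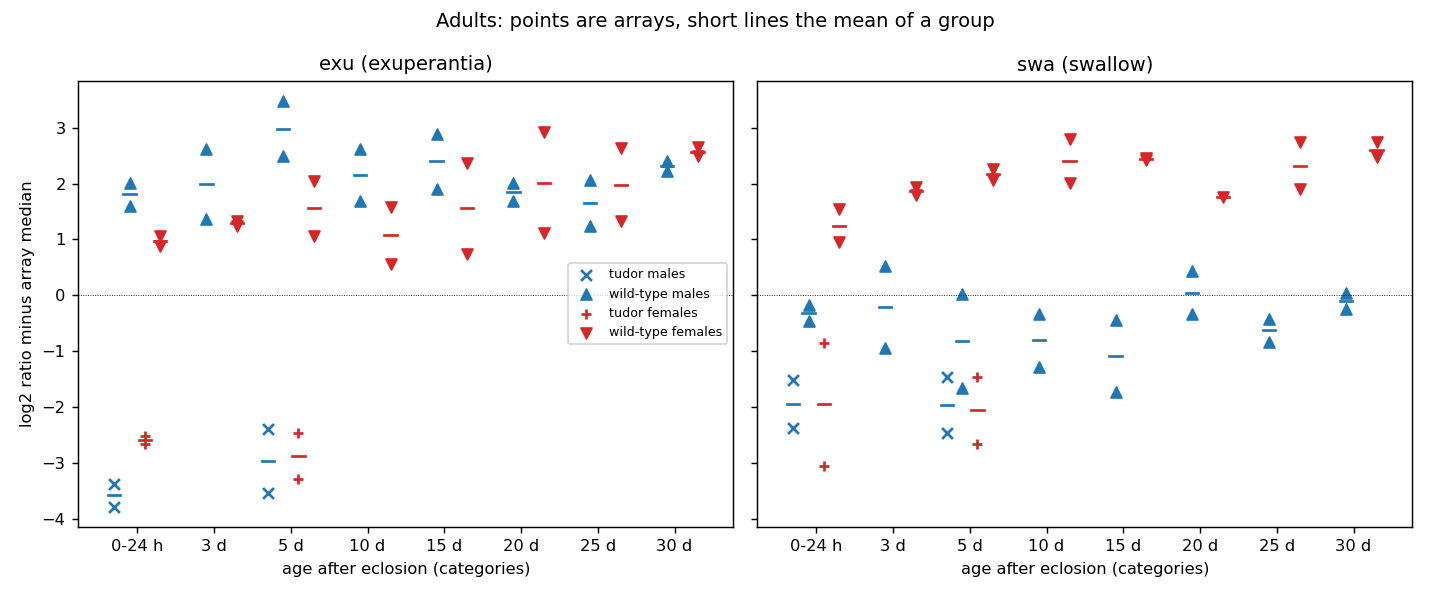
Centred log2 ratios of exu (left) and swa (right) on every adult array by age category, with tudor flies left of wild-type flies and males left of females. Points are arrays and short lines are means of a group. exu of both wild-type sexes sits between 0.56 and 3.48 and both tudor sexes at -2.39 or below, whereas swa is at 0.95 or more on every wild-type female array and at 0.52 or less on the others.

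Neither gene passed a test of age. In wild-type females exu was 1.06 and 0.88 at 0-24 h, 1.25 and 1.33 at 3 d, and 1.07 and 2.05 at 5 d. It was 0.56 and 1.59 at 10 d, 0.74 and 2.37 at 15 d, and 1.12 and 2.92 at 20 d. It was 2.63 and 1.33 at 25 d, and 2.65 and 2.50 at 30 d. At 10 to 25 d the replicates of an age lay over 1 log2 unit apart. The slope of exu in females was 0.32 ± 0.14 per 10 d (SE, 95% interval 0.036 to 0.61, unadjusted p = 0.0283, limma adjusted p = 0.144), and 8.7% of 6860 probes passed that test, 3.85% with a rise and 4.85% with a fall.

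The replicates of each age up to 15 d lay on different slide sets, and all flies of 20 d or older lay on slide set B. On set A exu in females averaged 0.94 ± 0.28 (SD, n = 5) and on set B 1.94 ± 0.72 (n = 11). Without the slide set in the model the female slope was 0.45 per 10 d and passed (limma adjusted p = 0.0295), and on slide set A alone it was -0.37. In males the slope of exu was -0.20 ± 0.14 (limma adjusted p = 0.402), and 10.8% of the probes passed, 5.09% with a rise and 5.76% with a fall, so that 46.9% of the calls were rises, against 70.7% without centring and 58.7% under quantile normalization. The slope of exu in males minus that in females was -0.52 ± 0.19 (SE, unadjusted p = 0.00846, limma adjusted p = 0.130), a test passed by 1.37% of the probes, 0.554% as higher and 0.816% as lower, so that 40.4% of the calls were higher, against 66.7% without centring and 53.8% under quantile normalization.

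In females swa was 1.54 and 0.95 at 0-24 h, 1.80 and 1.94 at 3 d, 2.07 and 2.27 at 5 d, and between 1.76 and 2.80 at later ages. Both arrays of 0-24 h lay below all others, and the difference of 3-5 d from 0-24 h was 0.77 ± 0.42 (SE, n = 4 and 2, 95% interval -0.11 to 1.65, limma adjusted p = 0.501). It was 0.19 without adult female 0-24 h replicate 2 and 1.36 without replicate 1 of that age. The same difference of exu was 0.46 ± 0.44 (limma adjusted p = 0.765), and 1.47% of 6816 probes passed, 0.0587% as higher and 1.41% as lower. Without adult female 0-24 h replicate 2, 43 probes passed, against 100 with it, and without it 161 probes passed the test of the female age slope, against 597 with it. In males, the differences of 3-5 d from 0-24 h were 0.68 ± 0.44 for exu and -0.20 ± 0.42 for swa (limma adjusted p = 0.590 and 0.911), and 1.17% of 6845 probes passed, 0.292% as higher and 0.877% as lower. The male exu difference was 0.048 without adult male 0-24 h replicate 2 and 1.32 without replicate 1 of that age. Without centring 7.69% of the male calls were higher, against 25% with it. The slopes of swa were 0.19 ± 0.14 per 10 d in females and -0.022 ± 0.14 in males (limma adjusted p = 0.396 and 0.938).

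In tudor flies exu was low in both sexes. Tudor females had exu values of -2.52 and -2.67 at 0-24 h and -3.29 and -2.47 at 5 d, against 1.06 and 0.88 at 0-24 h and 1.07 and 2.05 at 5 d in wild-type females. Every tudor value lay over 3 log2 units below every wild-type value. The means were -2.74 and 1.26. With the slide set in the model the difference was -4.36 ± 0.38 (SE, n = 4 each, limma adjusted p = 4.69e-09), or 20.6-fold lower, the 8th smallest p of 7003 probes. In this comparison 37.8% of the probes passed, 13.6% as lower and 24.2% as higher, so that 64.1% of the calls were higher, against 51.0% without centring and 49.0% under quantile normalization. The scan comment of tudor female 0-24 h replicate 2 names another slide than its title, and without it and adult female 20 d replicate 2, whose comment also differs, the exu difference was -4.42 (limma adjusted p = 1.82e-08).

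Tudor males had exu values of -3.78 and -3.37 at 0-24 h and -3.55 and -2.39 at 5 d, against 2.02 and 1.60 at 0-24 h and 2.49 and 3.48 at 5 d in wild-type males. The groups were again wholly apart. The means were -3.27 and 2.39. With the slide set in the model the difference was -6.03 ± 0.38 (SE, n = 4 each, limma adjusted p = 4.96e-13), or 65.3-fold lower. Of the probes 22.7% passed here, 12.2% as lower and 10.5% as higher. The loss of exu was larger in males than in females by 1.67 (males minus females -1.67 ± 0.52, SE, limma adjusted p = 0.0196), a test passed by 21.6% of the probes, 13.7% as lower and 7.84% as higher, so that 36.4% of the calls were higher, against 46.8% under quantile normalization. This call was lost without centring, under quantile normalization, without the slide set term, on slide set B alone and with either tudor age alone, with limma adjusted p-values of up to 0.189. It was also lost without adult female 0-24 h replicate 2, adult male 0-24 h replicate 1 or tudor male 5 d replicate 1 (limma adjusted p of up to 0.0602).

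swa was also lower in tudor flies, and the order of the sexes was the reverse. Tudor females had swa values of -0.85 and -3.06 at 0-24 h and -2.66 and -1.46 at 5 d, against 1.54 and 0.95 at 0-24 h and 2.07 and 2.27 at 5 d in wild-type females. All tudor values lay below 0 and all wild-type values above it. With the slide set in the model the difference was -3.95 ± 0.45 (SE, n = 4 each, limma adjusted p = 2.45e-07), or 15.4-fold lower.

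Tudor males had swa values of -2.38 and -1.52 at 0-24 h and -2.46 and -1.46 at 5 d, against -0.46 and -0.17 at 0-24 h and -1.67 and 0.03 at 5 d in wild-type males. One wild-type male array of 5 d lay within the range of the tudor males. With the slide set in the model the difference was -1.62 ± 0.45 (SE, n = 4 each, limma adjusted p = 0.00881), or 3.08-fold lower. It missed the threshold without adult male 5 d replicate 2 (-1.36, limma adjusted p = 0.0623) and with tudor flies of 5 d alone (-1.38, limma adjusted p = 0.0936). The tudor effect in males minus that in females was 2.32 ± 0.60 for swa (limma adjusted p = 0.00566), and it was not passed on slide set B alone (1.73) or with tudor flies of 0-24 h alone (1.56).

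Between tudor males and tudor females neither gene passed. exu differed by -0.54 ± 0.37 (SE, n = 4 each, 95% interval -1.28 to 0.21, limma adjusted p = 0.424) and swa by 0.050 ± 0.43 (95% interval -0.82 to 0.92, limma adjusted p = 0.964). In this comparison 10.9% of 7002 probes passed, 2.77% as higher and 8.13% as lower, so that 25.4% of the calls were higher, against 42.2% under quantile normalization. All tudor arrays lay on slide set B, and on the 2 slides that also held a wild-type female array, of another age, the tudor minus wild-type differences of exu were -5.32 and -5.39.

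The germline lists were read in both tudor sexes. The median of the 6 maternal and germline genes on an array lay between -1.92 and -0.58 in tudor females, against 0.13 to 1.24 in wild-type females of the same ages, and 5 of the 6 were lower and 1 higher (median difference -2.38 against 0.18 over all probes). In tudor males 1 of the 6 was lower, 1 higher and 4 did not pass, with a median of 0.027 against 0.14 over all probes. The array medians of these genes still lay apart, between -1.675 and -0.757 in tudor males, against -0.689 to -0.224 in wild-type males of the same ages. cort, an activator of the anaphase-promoting complex in female meiosis, was lower in tudor females (-2.69 ± 0.33, SE, limma adjusted p = 9.70e-07). In tudor males, all 9 testis genes tested were lower with a median of -3.91, and the array medians of the list lay between -1.12 and -0.47, against 2.38 to 3.56 in wild-type males. In tudor females 3 of the 9 testis genes were higher and none lower and 6 did not pass, with a median of 0.79 against 0.18 over all probes. Of all probes, 24.2% were called higher and 13.6% lower in tudor females. In tudor males these shares were 10.5% and 12.2%. Acp36DE did not pass in tudor males and ranged from 3.28 to 5.62, against 3.19 to 4.29 in wild-type males. Of the 10 RNA localisation genes, 2 were lower in tudor females and 1 was higher in tudor males. Over all probes these shares were 13.6% and 10.5%. bcd did not pass in either sex (limma adjusted p = 0.991 in females and 0.459 in males). The part of germ cell number in the exu and swa values was not tested. The follicle cell list (15 genes) and the fat body list (6 genes) had no probe.

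**Figure D3:**
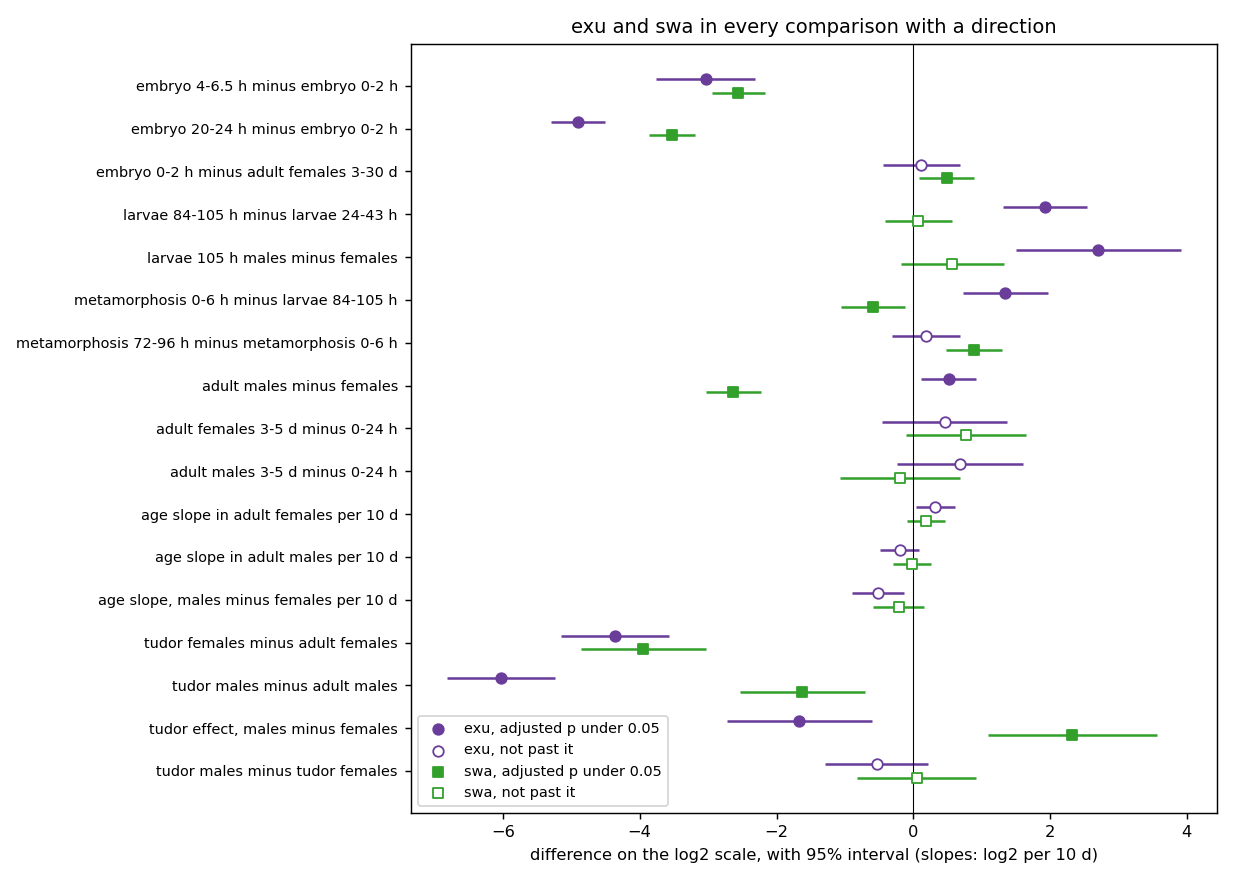
Differences of exu (purple circles) and swa (green squares) on the log2 scale in the 17 comparisons with a direction, with 95% intervals. Filled symbols passed an adjusted p of 0.05. Both genes are lower in the 2 comparisons of later with 0-2 h embryos and in tudor flies of either sex. Both passed on opposite sides of 0 at the larva to metamorphosis step, in the difference of the tudor effects and in adult sexes, where exu changed sign under quantile normalization. They also lie on opposite sides, without passing, in males of 3-5 d against 0-24 h and in tudor males against tudor females. At the metamorphosis step swa was -0.0080 under quantile normalization. The exu call in the difference of the tudor effects held in 6 of 12 alternatives.

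Ordered over 21 windows of stage and sex, exu was highest in wild-type males of 3-30 d (2.19 ± 0.61, SD, n = 14), 0-2 h embryos (1.81 ± 0.22, n = 6) and wild-type males of 0-24 h (1.81 ± 0.30, n = 2). It was lowest in tudor males (-3.27 ± 0.61, n = 4), 20-24 h embryos (-3.16 ± 0.52, n = 8) and 12-20 h embryos (-2.86 ± 0.46, n = 16). None of the 20 steps between neighbours in this order exceeded the larger SD of the pair. swa was highest in 0-2 h embryos (2.74 ± 0.48, n = 6) and wild-type females of 3-30 d (2.26 ± 0.37, n = 13). Its lowest means, almost equal, were in tudor females (-2.008 ± 1.03, n = 4) and at 0-6 h of metamorphosis (-2.001 ± 0.26, n = 6). The medians of these windows were -2.06 and -2.08, in the reverse order. Of its 20 steps, 2 exceeded the larger SD, the step from 0-2 h embryos to females of 3-30 d and the step from females of 0-24 h (1.25 ± 0.42, n = 2) to 4-6.5 h embryos (0.24 ± 0.44, n = 8).

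The genes whose group means ran most like those of exu and swa were named by Pearson's r over the 80 groups, among 2903 genes. The points share the reference RNA and the slides, and neighbouring collections overlap, so the values describe these arrays and carry no test. For exu they were Pen (r = 0.87), CG10803 (0.87), stil (0.80), CG5194 (0.79) and CG10062 (0.77), and stil is a gene needed for germ cells in females. 4 of these 5 were also among the first 5 with no centring, where CG10062 ranked 7th, and with the 4 arrays unlike the rest left out, where it ranked 8th. For swa they were mtrm (0.89), smg (0.89), tos (0.88), Pxt (0.87) and CNBP (0.85). tos encodes an exonuclease of the female germline and Pxt a peroxidase of the ovary, and under both settings the same 5 came first. Between exu and swa r was 0.41, which ranked swa 275th among the genes set against exu.

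Pen had the highest r with exu. Its mean was -3.37 in tudor males and -3.56 in tudor females, against 2.47 in wild-type males and 1.48 in wild-type females over all ages. Like exu it was high in 0-2 h embryos (2.17) and low at 20-24 h (-2.71). In the sexed larvae it averaged 0.95 in males and -0.19 in females, a difference that did not pass (limma adjusted p = 0.0757). mtrm, the gene with the highest r with swa, averaged 3.77 in 0-2 h embryos. In adults it averaged -0.81 in tudor males and -1.32 in tudor females, against -1.24 in wild-type males and 2.90 in wild-type females of all ages. In tudor males, where swa was lower, the mtrm difference from wild-type males of 0-24 h and 5 d was 0.38 ± 0.63 and did not pass (SE, limma adjusted p = 0.722).

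**Figure D4:**
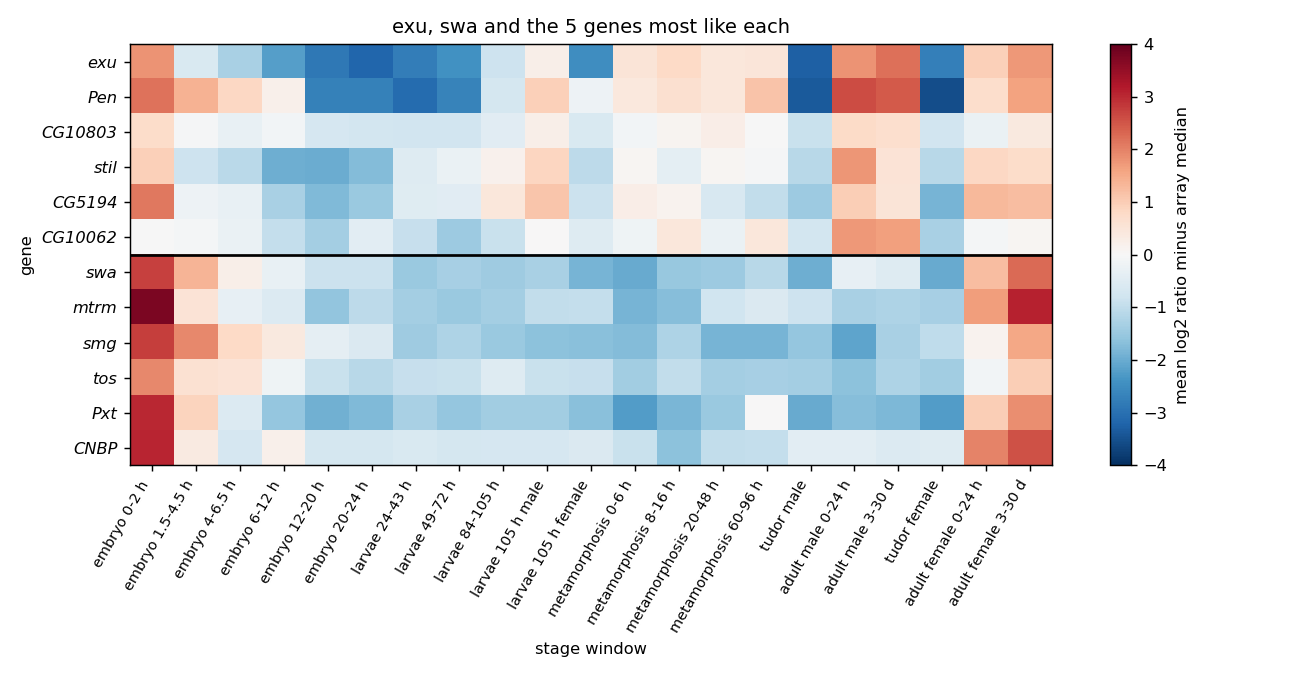
Mean centred log2 ratios of exu with its 5 most alike genes (above the line) and swa with its 5 (below) over 21 windows of stage and sex, with tudor flies left of wild-type flies and males left of females. Red is above and blue below the array median, on a scale ending at 4. exu and Pen are red in wild-type adults of both sexes, and the swa block is red in 0-2 h embryos and in wild-type females of 3-30 d.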

How the data were processed

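Each array gave 1 column of log2 ratios, deposited by the authors as a value table, of the sample's RNA against the common reference, with a GenePix instrument named in the labels. The labels write the ratio as the red over the green scan on all 159 arrays, and 13 scan comments name cy5 for the sample, so the direction is stated for those and likely for the others. How background was corrected and values normalized before deposit is not stated in these sources. Array medians, from -0.78 to 0.77, were subtracted. The 252 values above 16 were treated as missing. Fits used limma 3.58.1 in R 4.3.3 with data.table (version 1.17.8), lmFit and eBayes, the slide set as a term (57 arrays in set A, 102 in set B), two-sided tests and Benjamini-Hochberg adjustment over all probes with values on 80% of the arrays, and were tested on simulated data. Windows were compared using only their arrays, sexed larvae within 24 larval arrays, adult sexes and ages within 32 and tudor flies within 40 adult arrays, with flies of 0-24 h set at 0.5 d.

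Gene symbols came with the platform and were brought up to date by gene ID for 4089 of 4137 probes with 1 gene. Of several probes for 1 gene, that with most values was read. Named genes were exu and swa, the 5 genes most like each by r (at least 70 shared groups), and per list and comparison up to 4 that passed with the smallest adjusted p. bcd where it did not pass and Acp36DE in tudor males were named outside this rule, after their values were seen. Members, lists and comparisons were chosen with earlier results of these data known. Sequences and coordinates are not given here. Alternatives were values without centring, quantile normalization, other filters, other batch terms, either slide set alone and arrays left out.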

Additional observations from a re-analysis of the deposited data

Results flagged for a closer look

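In 36 sets of 4 to 10 arrays of 1 window and gene, 5 held an array far from the others. A rate of about 1 in 20 holds for arrays drawn from 1 population. These windows pool times or ages and some share arrays, so the count cannot be set against that rate. All 5 concern exu. At 4-6.5 h of embryogenesis exu was 1.01 on embryo 4-5 h replicate 1, with the other 7 arrays between -2.14 and -1.32, and this array resembled no other. At 6-12 h it was -3.15 on embryo 11-12 h replicate 1, with the others between -2.53 and -1.94, and the next collection, 12-13 h, averaged -3.05. At 0-6 h of metamorphosis it was -0.13 on the single 0 h array, with the others between 0.47 and 0.78. At 72-96 h of metamorphosis it was -0.30 on the 80 h array of replicate 2, with the others between 0.70 and 1.26. In wild-type females of 0-24 h and 5 d it was 2.05 on adult female 5 d replicate 2, with the others between 0.88 and 1.07.

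The tudor effect differed between the sexes for both genes in the test of the difference, but not under every setting. Males minus females was -1.67 ± 0.52 for exu (SE, limma adjusted p = 0.0196) and 2.32 ± 0.60 for swa (limma adjusted p = 0.00566). The exu call held in 6 of 12 alternatives (limma adjusted p of up to 0.189) and was lost without any 1 of adult female 0-24 h replicate 2, adult male 0-24 h replicate 1 and tudor male 5 d replicate 1. The swa call was lost on slide set B alone (1.73, limma adjusted p = 0.148) and with tudor flies of 0-24 h alone (1.56, limma adjusted p = 0.310), and held in the other 9 of 11 alternatives. On 4 of 4 tudor male arrays and 4 of 4 tudor female arrays exu was lower than on every wild-type array of the same sex and ages. In swa, 1 wild-type male array overlapped the tudor male arrays.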

How the results depend on the processing

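Of 404 values of exu and swa under the alternatives, 362 kept their direction and their side of the threshold, and with 1 array left out 1079 of 1114 did. The falls in embryos of 20-24 h, the sex difference of swa in adults and the lower exu and swa in tudor females kept theirs under all alternatives run. On slide set A alone the embryo 4-6.5 h differences were -2.42 for exu and -2.32 for swa, the late larval rise of exu was 1.61 and the swa change was -0.21, and none passed, with 2 arrays per window. There the 0-2 h embryo minus female difference passed for exu (1.10) and was -0.11 for swa, the swa change at the start of metamorphosis was -0.36, the swa rise to 72-96 h was 0.49, and the exu age slopes were -0.37 in females and 0.34 for males minus females. On slide set B alone the embryo minus female difference of exu was -0.34, the larval sex difference of exu was 2.71 and missed the threshold, the changes at the start of metamorphosis were 1.08 for exu and -0.71 for swa, the adult sex difference of exu was 0.31, the male 3-5 d difference of swa was 0.45, and the tudor effects of males minus females were -1.61 for exu and 1.73 for swa. Without centring the late larval swa change was -0.076, the start of metamorphosis gave -0.27 for swa, the adult sex difference of exu was 0.29, the male age slope of swa was 0.024 and the tudor effect of exu, males minus females, was -1.51. Quantile normalization gave -0.083 for the late larval swa change, -0.0080 for swa at the start of metamorphosis, -0.11 for the adult sex difference of exu, -0.96 for the tudor effect of exu, males minus females, and -0.21 for swa in tudor males minus tudor females. With no filter on missing values the swa change at the start of metamorphosis stayed -0.59 and missed the threshold. With the slide as a random block that change was -0.54 and swa in tudor males minus tudor females was -0.030. Without the slide set term the exu slope in females was 0.45 and passed, the male swa slope was 0.074 and the tudor effect of exu, males minus females, was -1.67 and missed the threshold. Without arrays whose comment differs from the title the larval sex difference of exu was 2.25 and missed it, and swa in tudor males minus tudor females was -0.29. With tudor flies of 0-24 h alone the tudor effects of males minus females were -1.82 for exu and 1.56 for swa, and with 5 d alone -1.51 for exu, while swa in tudor males was -1.38. The cause was not tested in any of these.

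With 1 array left out the lowest and highest values were -0.037 and 0.25 for exu and 0.41 and 0.59 for swa in 0-2 h embryos minus females, -0.039 and 0.21 for swa in late larvae, and 1.82 and 3.59 for exu in larval sexes (missed without the larval female replicate 2 or male replicate 1). They were -0.73 and -0.48 for swa at the start of metamorphosis, -0.044 and 0.96 for exu in females of 3-5 d, -0.54 and 0.15 for swa in males of 3-5 d, and -0.078 and 0.068 for its male slope. They were -1.88 and -1.36 for swa in tudor males, -1.98 and -1.38 for exu in the tudor effect of males minus females (missed without adult female 0-24 h replicate 2, adult male 0-24 h replicate 1 or tudor male 5 d replicate 1), and -0.29 and 0.60 for swa in tudor males minus tudor females. As a replicate block the number gave an exu slope in females of 0.45 (passed, limma adjusted p = 0.0151), a male swa slope of 0.074, and no other changed call. The deviations of samples with the same number correlated over 0.1 in 59 of 120 pairs of adult groups and 211 of 435 pairs of embryo groups, so the numbers were not read as pairs, apart from the sexed larvae, which share slides (r = 0.71, exu 2.71, limma adjusted p = 0.00898). Apart from single arrays left out, the lowest and highest numbers of probes that passed were 0 and 4529 for 4-6.5 h embryos (3698 as reported), 2177 and 6308 for 30 collections (5634), 70 and 2159 for late larvae (2063), 146 and 447 for larval sexes (240), 600 and 2623 for the start of metamorphosis (2241), 1895 and 3564 for its end (2863), 481 and 1810 for 18 times (1286) and 3102 and 6122 for adult sexes (5073). They were 53 and 145 for females of 3-5 d (100), 15 and 93 for males (80), 6 and 1511 for the female age slope (597), 111 and 1194 for the male slope (744), 0 and 197 for their difference (94), 1229 and 2828 for tudor females (2645), 897 and 1696 for tudor males (1589), 525 and 1599 for the difference of tudor effects (1510) and 96 and 811 for tudor males minus tudor females (763). With 1 array left out they were 43 and 150 for females of 3-5 d, 33 and 93 for males, 161 and 832 for the female slope, 450 and 792 for the male slope, 24 and 122 for their difference and 454 and 788 for tudor males minus tudor females. Without centring the median of all probes shifted by up to -0.44 (embryo 20-24 h). A fit of the metamorphosis comparisons without replicate 1 at 20 to 80 h was added after seeing the data and changed no exu or swa call. The second exu probe, with 1 value, and slide set A alone in fits with too few arrays were not run. The files hold no intensities, so spots near background could not be told apart.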
